A study of Sus scrofa with 16 samples.

Results

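The 8 genes described here encode secreted metalloproteases of the ADAMTS family: ADAMTS1, ADAMTS2, ADAMTS4, ADAMTS5, ADAMTS6, ADAMTS9, ADAMTS10 and ADAMTS12. They were taken by symbol from a count table of 29552 named genes, in which all 8 were present. All 8 also passed the filter on low counts, as did 14530 genes in total. The table came from porcine valvular interstitial cells, which populate the leaflets of the aortic valve, cultured from pigs aged 5-6 months. Cells of each sex grew for 48 hours under low serum (1%), either on a poly(ethylene glycol) norbornene hydrogel of 5.8 kPa or on tissue culture plastic. The labels call cells on gel quiescent fibroblasts and cells on plastic myofibroblasts, the contractile, matrix-producing state of these cells. Each sex and surface formed a group, 4 in all, with 4 biological replicates per group and 16 libraries, and no other treatment or genotype. The labels do not say whether a replicate is 1 pig or a pool, so the p-values measure the spread between these replicates.

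ADAMTS proteases are made as precursors with a propeptide, which furin-like convertases can remove, and act in the extracellular matrix. In them a zinc-dependent catalytic domain is joined to thrombospondin-type repeats. One branch (ADAMTS1, ADAMTS4, ADAMTS5, ADAMTS9) cleaves the large hyaluronan-binding proteoglycans aggrecan and versican, another (ADAMTS2) removes the amino-terminal propeptide of fibrillar procollagens, and a further pair (ADAMTS6, ADAMTS10) is tied to fibrillin microfibrils. In heart valves, versican turnover by ADAMTS5 and ADAMTS9 is known to take part in the shaping of the leaflets during development.

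Levels are CPM, counts per M (mega) counts of the TMM-scaled library total, and changes are log2 with their standard error (SE). A call is an adjusted p under 0.05 in the quasi-likelihood test of edgeR, with Benjamini-Hochberg adjustment over all 14530 tested genes. Transcript lengths were not used here, so levels are compared between groups for 1 gene and not between genes. Library totals ran from 16.93 M to 27.48 M, and the members had from 69 to 5740 reads per library. Libraries of the same sex and number on gel and plastic deviated together from their group means over all tested genes, and are called a culture below. This pairing is not stated in the labels, so a culture here means only a shared sex and number. All 10 interstitial and fibroblast markers were tested, with a summed level of 40820 to 54957 CPM. Of all tested genes, 12.9% were called higher and 12.9% lower on plastic in male cells, and 12.7% and 11.3% in female cells. Within the interstitial and fibroblast list, 3 were higher and 4 lower on plastic in male cells and 1 higher and 4 lower in female cells. The 4 lower ones, which fell beside the member changes below, were PDGFRA (-2.44 and -2.38 on the log2 scale in male and female cells), POSTN (-2.36 and -2.27), LUM (-1.62 and -1.42) and DCN (-1.33 and -1.41). Group means of THY1, COL1A1, COL1A2 and COL3A1 were higher on plastic in both sexes, such as THY1 in male cells (129 to 219 CPM). The list thus moved in both directions, with a median of -0.03 in male and -0.21 in female cells, beside -0.03 and -0.04 over all tested genes. All 12 endothelial markers were detected, 3 of them (KDR, CLDN5, LYVE1) under 1 CPM on average. Their sum was 154 to 264 CPM in male gel, 197 to 333 in male plastic, 175 to 280 in female gel and 211 to 551 in female plastic. Most of it came from ERG, PECAM1 and CDH5, which did not move together. Mean ERG went from 110 to 148 CPM in male and from 110 to 182 in female cells, and CDH5 from 17.1 to 43.7 and 20.9 to 79.7. PECAM1 was lower on plastic on average, at 55.2 to 37.7 and 69.3 to 62.2 CPM. The endothelial sum was higher on plastic than on gel within each of the 8 cultures. In male cells 2 of 12 markers were called higher, close to the 12.9% of all tested genes, and in female cells 3, beside 12.7%. With the culture as a block 6 and 5 were called higher, where 15.5% and 14.5% of all tested genes were. In both fits 0 were called lower. On plastic the highest sums were those of female 1 (551), female 4 (435) and male 4 (333). Of 9 leukocyte markers 7 were under 1 CPM and CD3E had no read, with a summed level of 5.93 to 38.1 CPM, highest in female plastic 1. Of the 3 tested, 1 was higher and 1 lower on plastic in each sex. With the culture as a block these were LAPTM5 (2.39 and 1.89) and CD14 (-1.16 and -1.4). Of 7 cardiac muscle markers in the table, TNNT2 and NPPA had no read, 5 were under 1 CPM on average, and only TNNI3 and TTN were tested. TTN rose on average from 20.7 to 127 CPM in male and from 25.2 to 128 CPM in female cells, while TNNI3 was not called (0.12 and -0.11). The sum of 10 smooth muscle and pericyte markers, some of which myofibroblasts also express, was 491 to 721 CPM on gel and 1691 to 3121 CPM on plastic. Of the 9 tested, 7 were higher and 2 lower on plastic in each sex, the 2 lower being ABCC9 (-1.87 and -1.88) and KCNJ8 (-1.83 and -2.23). The part of these markers in the surface changes below was not tested. The shallowest library was male gel 2 (16.93 M), which also had the fewest detected genes (15476).

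The first comparison asked how the members differed between plastic and gel. ADAMTS2, ADAMTS9 and ADAMTS10 were higher on plastic in both sexes, ADAMTS4 and ADAMTS5 were lower on plastic in both sexes, and ADAMTS1, ADAMTS6 and ADAMTS12 were not called in either. In male cells 5 of the 8 members were therefore called (3 higher, 2 lower), where 25.8% of all tested genes were called (12.9% higher and 12.9% lower). In female cells the same 3 were higher and the same 2 lower, where 23.9% of all tested genes were called (12.7% higher and 11.3% lower). Over all tested genes, 16.5% were called in the same direction in both sexes, 9.24% higher and 7.27% lower. The 5 called members were also the ones whose CPM did not overlap between the surfaces, in both sexes, where 28.9% of tested genes in male and 27.7% in female cells did not overlap. The median log2 change of the 8 members was 0.11 in male and 0.16 in female cells, beside -0.03 and -0.04 over all tested genes. The members' calls thus lay on both sides with a median close to that of all genes.

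**Figure D1:**
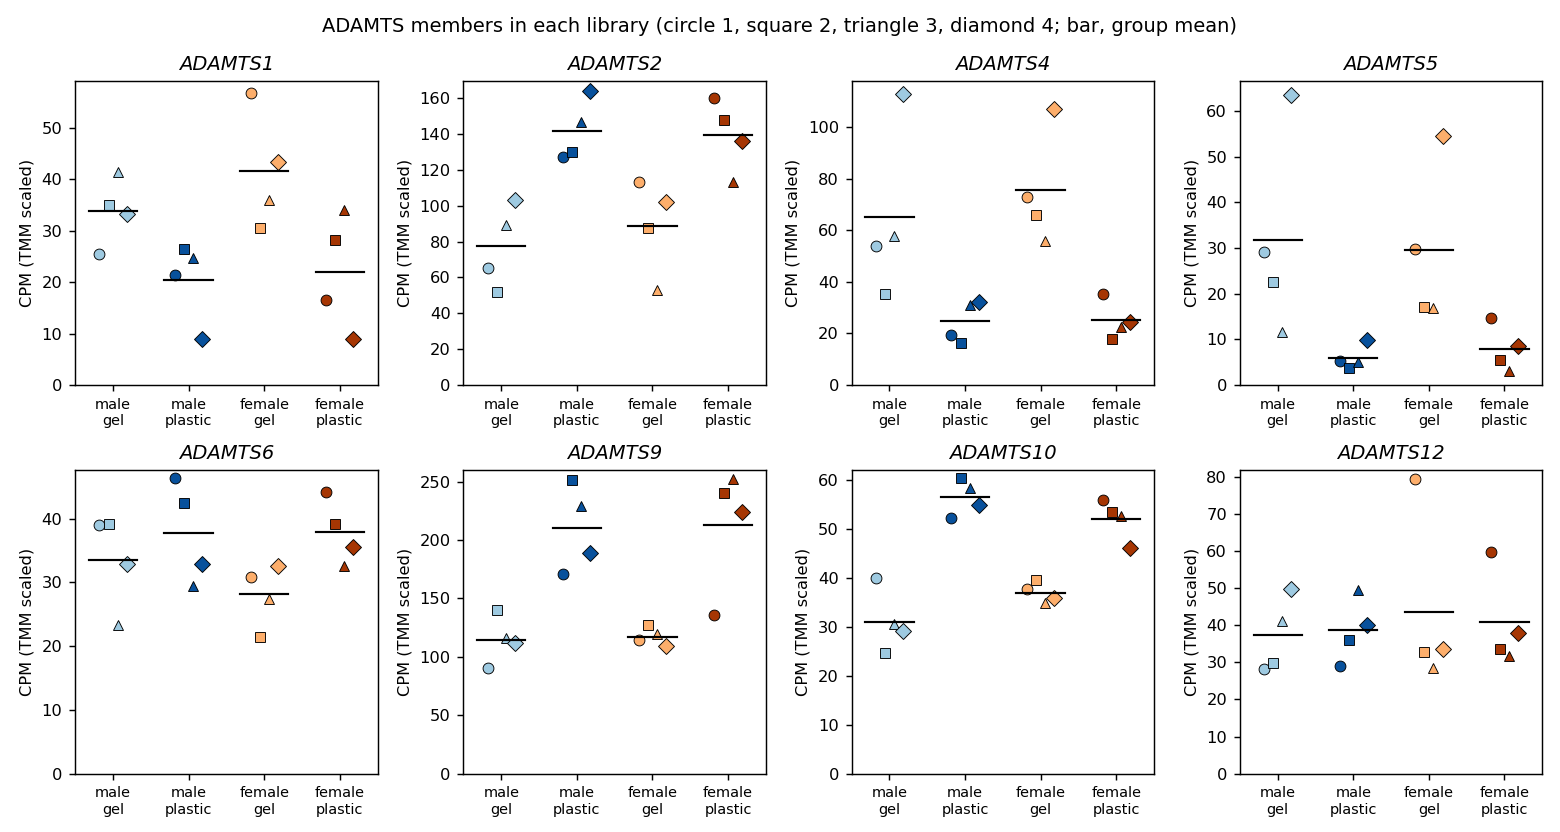
CPM (vertical axis, from 0) of each of the 8 members in the 16 libraries, grouped by sex and surface on the horizontal axis, with a symbol for each replicate number and a bar for the group mean. The plastic libraries lie below all gel libraries of their sex for ADAMTS4 and ADAMTS5, and at or above them for ADAMTS2, ADAMTS9 and ADAMTS10.

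Among the proteoglycan-cleaving members, ADAMTS5 (aggrecanase-2, chromosome 13, 190353019 to 190413110 on Sscrofa11.1) had the deepest fall. In male cells it was at 29.1, 22.6, 11.6 and 63.5 CPM on gel (replicates 1 to 4) and at 5.32, 3.76, 4.97 and 9.76 CPM on plastic. The gel libraries were spread widely, with male gel 4 the highest, but all 4 lay above every plastic library. The log2 change was -2.41 (SE 0.55, adjusted p = 0.00421 by edgeR), 5.31-fold lower. In female cells ADAMTS5 was at 29.8, 17.0, 16.8 and 54.6 CPM on gel and at 14.7, 5.38, 3.04 and 8.61 CPM on plastic. Female plastic 1 came closest to the gel libraries, and the groups did not overlap. The log2 change was -1.90 (SE 0.54, adjusted p = 0.017 by edgeR), 3.73-fold lower, and it was negative in 8 of 8 cultures, from -2.69 in male 4 to -1.02 in female 1. Of all tested genes, 13.3% were lower and 14.2% higher on plastic in all 8 cultures. The female call was lost without female gel 4 (-1.42, adjusted p = 0.0706), female plastic 2 (adjusted p = 0.0519) or female plastic 3 (adjusted p = 0.0507). With the culture as a block it was kept, at -1.94 (SE 0.29, adjusted p = 0.000356).

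ADAMTS4 (aggrecanase-1, chromosome 4, 89260354 to 89269238) was lower on plastic in both sexes. Male cells had 53.8, 35.2, 57.8 and 113 CPM on gel and 19.5, 16.3, 31.2 and 32 CPM on plastic. Female cells had 73.0, 65.9, 56.0 and 107 CPM on gel and 35.4, 18, 22.6 and 24.6 CPM on plastic. Replicate 4 was the highest on gel in each sex, and the plastic libraries lay below every gel library of their sex, the nearest pair being male gel 2 (35.2) and male plastic 4 (32). The log2 change was -1.39 (SE 0.33, adjusted p = 0.00476) in male and -1.58 (SE 0.33, adjusted p = 0.00194) in female cells by edgeR, 2.62-fold and 2.99-fold lower. All 8 cultures were lower on plastic, by -2.11 (female 4) to -0.89 (male 3), as was the case for 13.3% of all tested genes. No single library decided the call in either sex, with adjusted p up to 0.0197 in male and 0.00911 in female cells when 1 library was left out.

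ADAMTS1, a protease of the same branch that also releases fragments of other matrix proteins, lies next to ADAMTS5 on chromosome 13 (190277175 to 190285957). It was at 25.4, 35.0, 41.5 and 33.2 CPM in male gel and at 21.4, 26.4, 24.7 and 9.04 CPM in male plastic. In female gel it was at 56.7, 30.5, 35.9 and 43.3 CPM and in female plastic at 16.6, 28.2, 34.0 and 8.86 CPM. The groups overlapped in both sexes, and the lowest plastic libraries were male 4, female 4 and female 1. The change did not pass the test, at -0.73 (SE 0.36, adjusted p = 0.149) in male and -0.92 (SE 0.36, adjusted p = 0.0724) in female cells by edgeR. All 8 cultures were lower on plastic, as was the case for 13.3% of all tested genes. In female cells the ADAMTS1 change was called by DESeq2 (-0.90, adjusted p = 0.0414), by limma-voom (-1.07, adjusted p = 0.0391), without male plastic 4 (-0.93, adjusted p = 0.0423) and without female plastic 3 (-1.22, adjusted p = 0.0309). With the culture as a block, adjusted p was 0.114 in male and 0.0528 in female cells.

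The size of the ADAMTS1 difference varied between cultures more than that of any other member. It was -1.86 in male 4, -1.77 in female 1 and -2.28 in female 4, against -0.74 to -0.08 in the other cultures. These 3 cultures are also those with the highest endothelial marker sums on plastic (333, 551 and 435 CPM, against 197 to 277 in the others) and the lowest smooth muscle and pericyte sums (2255, 1691 and 1856 CPM, against 2705 to 3121). On gel the same 3 cultures also had the highest endothelial sums (264, 234 and 280 CPM, against 154 to 198 in the others). There ADAMTS1 was at its group mean in male 4 and above it in female 1 (0.48) and female 4 (0.10) on the log2 scale. Since these cultures held the largest falls, smaller values without them follow from that choice and do not bear on the marker sums. Without them, on both surfaces, the log2 change of ADAMTS1 was -0.48 (SE 0.18, adjusted p = 0.0817) in male and -0.08 (SE 0.22, adjusted p = 0.871) in female cells by edgeR. ADAMTS4 and ADAMTS5 remained lower without them, with log2 changes of -1.12 and -2.16 in male and -1.57 and -1.99 in female cells. What part endothelial cells had in the ADAMTS1 values was not tested. In bulk libraries, fewer cells of a type and less RNA per cell cannot be told apart.

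ADAMTS9, the fourth member that cleaves versican and aggrecan (chromosome 13, 46033753 to 46209238), moved the other way. In male cells it was at 90.1, 139.8, 116 and 112 CPM on gel and at 171, 251, 229 and 189 CPM on plastic. In female cells it was at 114, 127, 119.5 and 109 CPM on gel and at 136, 240.2, 252 and 224 CPM on plastic. Every plastic library lay above every gel library of its sex, with female plastic 1 (136) nearest to the gel range. ADAMTS9 rose by 0.88 (SE 0.18, adjusted p = 0.00154) in male and by 0.86 (SE 0.18, adjusted p = 0.00182) in female cells by edgeR, 1.84-fold and 1.82-fold. The rise was seen in 8 of 8 cultures, from 0.26 (female 1) to 1.08 (female 3), as was the case for 14.2% of all tested genes. The call was kept under all 25 alternative settings in each sex. The members that cleave proteoglycans therefore did not share 1 direction: ADAMTS4 and ADAMTS5 fell, ADAMTS9 rose and ADAMTS1 was not called.

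ADAMTS2, the main procollagen I amino-propeptidase (chromosome 2, 79182901 to 79406879), was higher on plastic. Male cells had 65.3, 51.8, 89.4 and 103 CPM on gel and 127, 129.8, 147 and 164 CPM on plastic. Female cells had 113, 87.4, 53.2 and 102 CPM on gel and 159.9, 148, 113 and 136 CPM on plastic. The male groups were apart, whereas in female cells the highest gel library (female 1) and the lowest plastic library (female 3) were both at 113 CPM when rounded. ADAMTS2 rose by 0.87 (SE 0.22, adjusted p = 0.00804) in male and by 0.65 (SE 0.22, adjusted p = 0.0417) in female cells by edgeR, 1.83-fold and 1.57-fold. All 8 cultures were higher on plastic, by 0.41 (female 4) to 1.32 (male 2), as was the case for 14.2% of all tested genes. The female call did not hold when female gel 2 or 3, female plastic 1, 2 or 4, or male plastic 1, 2 or 3 was left out. The adjusted p then ranged from 0.0514 (male plastic 1 left out) to 0.119 (female gel 3 left out). With the culture as a block it was kept, at 0.69 (SE 0.13, adjusted p = 0.00214).

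ADAMTS10, a fibrillin-binding member that is mutated in Weill-Marchesani syndrome, lies on chromosome 2 (70734234 to 70751205). It was at 40.0, 24.6, 30.7 and 29.2 CPM in male gel and at 52.3, 60.4, 58.5 and 54.9 CPM in male plastic. Female cells had 37.7, 39.7, 34.9 and 35.9 CPM on gel and 55.9, 53.6, 52.8 and 46.1 CPM on plastic. Replicates were closer together than for the other members and the surfaces were fully apart in each sex. ADAMTS10 rose by 0.86 (SE 0.12, adjusted p = 7.11e-05) in male and by 0.49 (SE 0.12, adjusted p = 0.00681) in female cells by edgeR, 1.82-fold and 1.40-fold. Male gel 2, the shallowest library, had the lowest value. Without male gel 2 and female plastic 4 the rises were 0.76 (adjusted p = 7.91e-05) and 0.55 (adjusted p = 0.00089). Without cultures male 4, female 1 and female 4 the female rise was 0.53 (SE 0.20) and no longer called (adjusted p = 0.113).

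ADAMTS6, the closest relative of ADAMTS10 (chromosome 16, 43702519 to 44010820), was not called. Male cells had 39.0, 39.1, 23.3 and 32.9 CPM on gel and 46.4, 42.5, 29.4 and 32.8 CPM on plastic, so the groups overlapped. Female cells had 30.9, 21.5, 27.4 and 32.6 CPM on gel and 44.1, 39.2, 32.6 and 35.6 CPM on plastic, and the groups met at 32.6. The log2 change was 0.17 (SE 0.18, adjusted p = 0.528) in male and 0.43 (SE 0.18, adjusted p = 0.10) in female cells by edgeR. With the culture as a block the female change was called, at 0.44 (SE 0.12, adjusted p = 0.0202), and the members called in female cells were then 4 higher and 2 lower, where 27.6% of all tested genes were called in that fit. In male cells that fit called the same number of members, 3 higher and 2 lower, where it called 29.7% of all tested genes. The annotated ADAMTS6 interval overlaps that of CENPK, a kinetochore gene, and the strand setting of the counting is not given in the sources used here, so reads of the shared stretch may not be told apart. The mean count was 193 for CENPK and 816.4 for ADAMTS6. The same holds for ADAMTS7 and TBC1D2B (mean counts of 1802 and 952), and for ADAMTS13 (484.2) and its overlapping genes CACFD1 (481) and SLC2A6 (530). The loci that overlap ADAMTS1 (44.4 against 723.3) and ADAMTS9 (at most 128 against 3857) had lower counts.

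ADAMTS12, which with ADAMTS7 cleaves the cartilage matrix protein COMP (chromosome 16, 19547003 to 19920780), showed no surface difference beyond its spread. Male cells had 28.3, 29.8, 41.2 and 49.8 CPM on gel and 28.9, 36.0, 49.6 and 40.1 CPM on plastic. Female cells had 79.3, 32.9, 28.6 and 33.5 CPM on gel and 59.8, 33.6, 31.7 and 37.8 CPM on plastic. Female 1 was the highest culture on both surfaces, and without it female gel spanned 28.6 to 33.5 CPM and female plastic 31.7 to 37.8 CPM, inside the male range of 28.3 to 49.8 CPM. The log2 change was 0.05 (SE 0.30, adjusted p = 0.923) in male and -0.10 (SE 0.30, adjusted p = 0.85) in female cells by edgeR. Its sign turned in some alternative settings, none of which gave a call.

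The order of the group means followed the surface for the called members, which largely follows from their choice by surface calls in both sexes. For ADAMTS10 it was male plastic (56.5 ± 3.64 CPM, mean ± SD, n = 4), female plastic (52.1 ± 4.2), female gel (37.1 ± 2.11) and male gel (31.1 ± 6.47). ADAMTS9 had female plastic (213 ± 52.4) and male plastic (210.0 ± 36.5) above female gel (117 ± 8.0) and male gel (114 ± 20.4). ADAMTS2 ran from male plastic (142 ± 17.1) and female plastic (139 ± 19.9) to female gel (89.0 ± 26.1) and male gel (77.5 ± 23.2). In each of these orders the neighbours of the same surface did not differ beyond their spread. ADAMTS4 was ordered female gel (75.4 ± 21.9), male gel (65.0 ± 33.5), female plastic (25.1 ± 7.38) and male plastic (24.7 ± 8.01). ADAMTS5 was ordered male gel (31.7 ± 22.4), female gel (29.6 ± 17.8), female plastic (7.92 ± 5.04) and male plastic (5.95 ± 2.63). Here too the neighbours of the same surface did not differ beyond their spread.

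The study was designed around differences between the sexes, so female and male cells were compared on each surface. No member was called on gel, where 0.103% of all tested genes were called, or on plastic, where 0.124% were called. By edgeR 0 members had an unadjusted p under 0.05 on either surface, and DESeq2 also called 0 on each. The log2 differences (female minus male) ran from -0.25 (ADAMTS6) to 0.30 (ADAMTS1) on gel and from -0.12 (ADAMTS10) to 0.41 (ADAMTS5) on plastic, with SE from 0.12 to 0.55. With 1 library left out, the lower limit on gel ran from -0.58 (without female gel 4) to -0.15 (without female gel 2) and the upper from 0.24 to 0.62 (without male gel 4). On plastic the lower limit then ran from -0.19 (without female plastic 3) to -0.06 (without female plastic 4) and the upper from 0.22 (without female plastic 1) to 0.76 (without male plastic 4). Every member overlapped between the sexes on both surfaces, where 2.03% of tested genes on gel and 2.85% on plastic did not overlap. At these SE, differences of the size seen for ADAMTS5 (0.41, SE 0.55) were not detectable.

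The change with surface did not pass a test of difference between the sexes for any member. By edgeR 0 of 8 were called and 1 had an unadjusted p under 0.05, where 0% of all tested genes were called, and DESeq2 also called 0 with 1 at an unadjusted p under 0.05. That 1 was ADAMTS10 by edgeR, whose rise was smaller in female cells by -0.37 (SE 0.17, unadjusted p = 0.0458, adjusted p = 0.767). Without male gel 2 and female plastic 4 this difference was -0.22. The other differences of changes ran from -0.23 (ADAMTS2) to 0.51 (ADAMTS5, SE 0.75). With 1 library left out, the upper limit over the members ran from 0.18 (without female plastic 1) to 0.99 (without female gel 4) and the lower limit from -0.60 (without male gel 4) to -0.27.

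**Figure D2:**
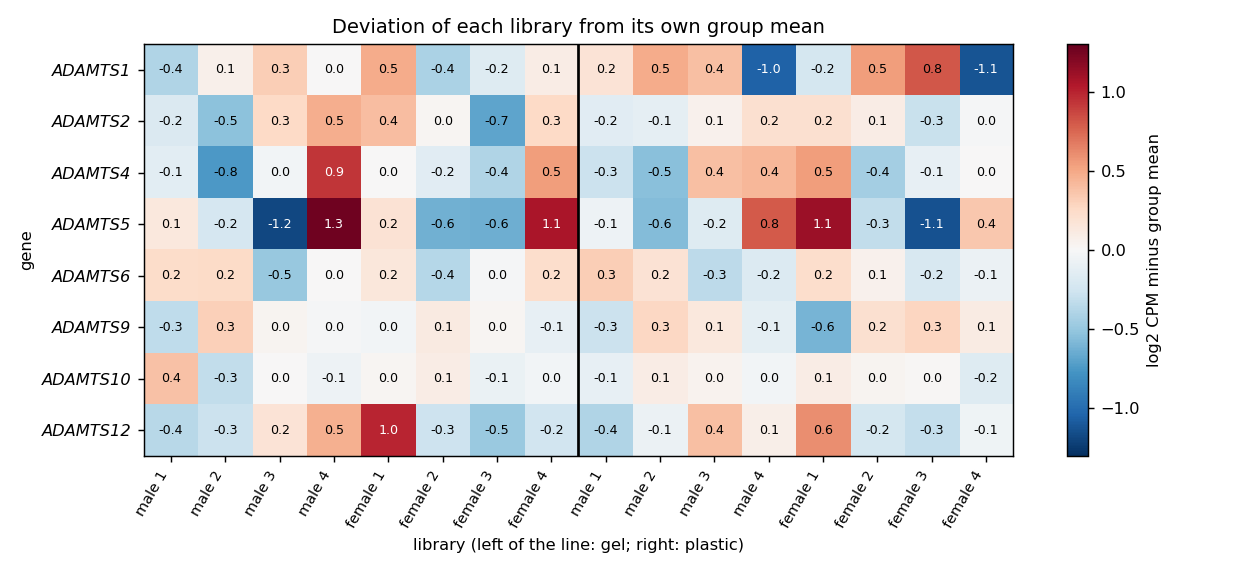
Deviation of each library's log2 CPM from the mean of its own group (color and printed value), for the 8 members (rows) in 16 libraries (columns, gel left and plastic right of the line). ADAMTS5 was high in male 4 and female 4 on gel and in female 1 and male 4 on plastic, and ADAMTS1 was low in male 4 and female 4 on plastic only.

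Members differed in how far cultures of 1 group lay apart. The SD of log2 CPM within groups was 0.85 for ADAMTS5, 0.61 for ADAMTS1, 0.51 for ADAMTS4 and 0.47 for ADAMTS12, beside a median of 0.21 over the 10297 tested genes with a mean of at least 5 CPM. It was 0.36 for ADAMTS2, 0.28 for ADAMTS6 and ADAMTS9 and 0.17 for ADAMTS10. ADAMTS5 thus had a larger within-group spread than 99.0% of these genes and ADAMTS10 than 31.8%. As a description with no test, cultures kept their side of the group mean on both surfaces in 8 of 8 cases for ADAMTS12 and in 7 of 8 for ADAMTS2, ADAMTS5 and ADAMTS9, but in 3 of 8 for ADAMTS1. Same-numbered libraries deviated together over all tested genes, and the share of those genes with such counts was not computed. The counts can therefore not be read as a trait of these members. For ADAMTS5 the deviations of male 4 were 1.26 on gel and 0.80 on plastic, and those of female 4 were 1.06 and 0.35. For ADAMTS1 male 4 was at its group mean on gel and at -1.05 on plastic, and female 4 was at 0.10 and -1.12.

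The rest of the ADAMTS family was read from a list of 11 further proteases, of which 9 were tested. Of the 9, 1 rose and 1 fell in male cells (25.8% of all tested genes called) and 0 rose and 2 fell in female cells (23.9% called), with medians of 0.22 and -0.14. ADAMTS7, the COMP-cleaving relative of ADAMTS12, fell from 90.4 to 45.2 CPM in male (-1.0, SE 0.22, adjusted p = 0.0034) and from 106 to 46.3 CPM in female cells (-1.20, SE 0.22, adjusted p = 0.000913) by edgeR. Its male groups overlapped through male gel 2 (49.6 CPM), and both calls were kept under all 25 alternatives. ADAMTS14, a procollagen propeptidase related to ADAMTS2, rose from 3.27 to 6.84 CPM in male cells (1.05, SE 0.33, adjusted p = 0.0289) and was not called in female cells (0.78, SE 0.33, adjusted p = 0.102). That male call did not hold with male gel 1 (adjusted p = 0.0758), male plastic 1 (0.0692), male plastic 2 (0.0543) or male plastic 4 (0.0662) left out, nor in a fit of the male libraries alone (0.0831). ADAMTS3, the other procollagen propeptidase, was not called, at 0.34 (SE 0.19) and 0.33 (SE 0.19). ADAMTS17, tied like ADAMTS10 to fibrillin microfibrils, fell in female cells (-0.65, SE 0.17, adjusted p = 0.0126) and was at -0.41 (SE 0.17, adjusted p = 0.095) in male cells, where the fit with the culture as a block called it (-0.42, adjusted p = 0.0361).

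Not called in either sex were the von Willebrand factor protease ADAMTS13 (0.22 and -0.37 in male and female cells), ADAMTS19, in which variants cause valve disease (0.14 and -0.14), ADAMTS15 (-0.56 and -0.53), ADAMTS20 (0.85 and 0.90) and ADAMTS8 (1.71 and 0.73). ADAMTS8 and ADAMTS20 were under 1 CPM in every library. ADAMTS13 was at 7.17 CPM in male gel 2 and 7.38 in female plastic 4, against 15.5 to 26.4 in the other libraries, which is why each result on members was also computed without those 2 libraries. ADAMTS16 and ADAMTS18 were at most at 0.113 and 0.35 CPM in any library and were not tested. Among all 19 family proteases, 17 were tested, of which 4 rose and 3 fell in male cells (25.8% of all tested genes called) and 3 rose and 4 fell in female cells (23.9% called).

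**Figure D3:**
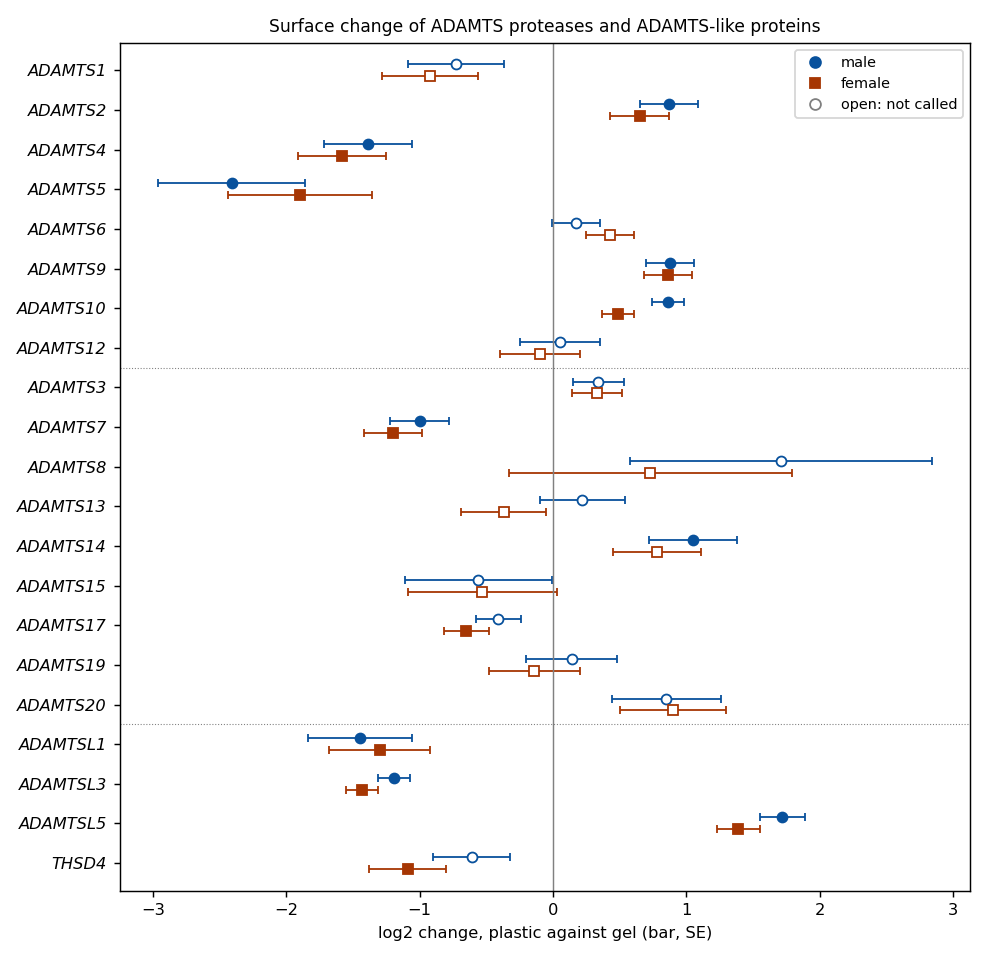
Log2 change of plastic against gel (horizontal axis, bar for the SE) in male and female cells for the 8 members, the 9 other tested ADAMTS proteases and 4 ADAMTS-like genes, with filled symbols for called changes. The largest called fall among the proteases is that of ADAMTS5 (-2.41 in male cells), and the largest called rise among the genes shown is that of ADAMTSL5 (1.72).

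ADAMTS-like proteins share the non-catalytic repeats of the family and have no protease domain. Of 6 tested genes of this list (7 in the table, with papilin), 1 rose and 2 fell in male cells (25.8% of all tested genes called), and 1 rose and 3 fell in female cells (23.9% called), with medians of -0.30 and -0.74. ADAMTSL3 had a mean of 294 CPM on gel and 129 CPM on plastic in male cells, and of 301 and 112 CPM in female cells. It fell by 1.19 (SE 0.12, adjusted p = 4.02e-06) and by 1.43 (SE 0.12, adjusted p = 7.7e-07) on the log2 scale by edgeR. ADAMTSL5, which binds fibrillin microfibrils, rose from 18.1 to 59.8 CPM (1.72, SE 0.17) and from 21.8 to 57.1 CPM (1.39, SE 0.16), a larger rise than that of any ADAMTS protease called. THSD4, also named ADAMTSL6, fell in female cells (-1.09, SE 0.29, adjusted p = 0.0123). That call was lost without female gel 1, the highest library at 55.8 CPM (adjusted p = 0.0539), and without cultures male 4, female 1 and female 4 (adjusted p = 0.295). ADAMTSL1 fell by 1.45 and 1.3 on the log2 scale from 1.70 and 1.69 CPM. Its female call was lost without female gel 4, female plastic 1 or female plastic 3, at adjusted p of 0.0941, 0.0592 and 0.0562.

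The proteoglycans that these enzymes cleave were listed with their link proteins, hyaluronan synthases and the hyaluronan anchor CD44. Of 10 listed genes 9 were in the table, where the synthase HAS2 was absent, and 7 were tested. None of the 7 was called higher on plastic in either sex, with 3 lower in male and 4 lower in female cells (medians -0.18 and -0.56). Of all tested genes, 12.9% in male and 12.7% in female cells were called higher, and 12.9% and 11.3% lower. VCAN, encoding versican, the main large proteoglycan of valve leaflets, fell from 1662 to 467 CPM in male (-1.83, SE 0.24, adjusted p = 4.22e-05) and from 1231 to 433 CPM in female cells (-1.51, SE 0.24, adjusted p = 0.00024) by edgeR. Its lowest gel library was female gel 1, at 674 CPM, still above the highest plastic library, at 512 CPM. HAPLN1, the link protein that ties versican and aggrecan to hyaluronan, fell by 1.13 (SE 0.27) and 1.28 (SE 0.27) on the log2 scale. The hyaluronan synthase HAS3 changed by -1.75 (SE 0.46) and -2.48 (SE 0.47), from means of 6.31 and 6.53 CPM on gel. HAS1, the other synthase tested, was at 0.313 to 0.568 CPM on average and not called. HAPLN3 was called in female cells only (-0.56, adjusted p = 0.0447), a call lost under 14 of 25 alternatives. ACAN, encoding aggrecan, was at 4.64 to 7.11 CPM on average and not called (0.27 and 0.09).

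Among procollagens and the other genes of procollagen processing, 4 of 11 tested genes rose and 3 fell in male cells, and 3 rose and 3 fell in female cells (medians 0.23 and 0.16), where 25.8% and 23.9% of all tested genes were called. COL5A1 rose by 1.13 (SE 0.15) and 1.06 (SE 0.15), COL5A2 by 0.56 (SE 0.11) and 0.71 (SE 0.11) and COL3A1 by 0.48 (SE 0.14) and 0.53 (SE 0.14). The male COL3A1 call was lost without male plastic 2 (adjusted p = 0.0678). Of the genes acting at the other end of the procollagen molecule from ADAMTS2, BMP1 and PCOLCE were called lower. TLL1, of the same list, had higher means on plastic, going from 4.74 to 6.5 CPM in male and from 4.56 to 6.4 CPM in female cells. With the culture as a block TLL1 was not called (0.43 and 0.5). The carboxy-terminal proteinase BMP1 changed by -0.42 (SE 0.14, adjusted p = 0.0343) and -0.52 (SE 0.14, adjusted p = 0.0112), and its enhancer PCOLCE by -0.71 (SE 0.21, adjusted p = 0.021) and -1.03 (SE 0.21, adjusted p = 0.00191). The male call of BMP1 was lost with the culture as a block (adjusted p = 0.0587) and without any single male gel or male plastic library except male gel 2. The male call of PCOLCE was lost without male gel 1, male gel 3, male plastic 1 or male plastic 4, at adjusted p from 0.0574 to 0.0661. Without cultures male 4, female 1 and female 4, the female calls of ADAMTS17 (adjusted p = 0.0613), HAS3 (0.0695), COL3A1 (0.0976), BMP1 (0.241) and ADAMTSL1 (0.236) were lost as well.

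Other matrix partners and substrates had 5 of 11 genes higher in each sex, with 3 lower in male and 2 lower in female cells (4 lower with the culture as a block, where NID1 and TFPI2 were added at adjusted p of 0.0262 and 0.0188). The shares of all tested genes called were 25.8% in male and 23.9% in female cells, and 27.6% in female cells with the block. FBN1, encoding the fibrillin-1 that ADAMTS10 binds, rose by 0.81 (SE 0.14) and 0.92 (SE 0.14). Fibronectin (FN1) rose by 0.56 (SE 0.09) and 0.61 (SE 0.09) and thrombospondin-1 (THBS1), a matricellular protein, by 0.90 (SE 0.17) and 1.05 (SE 0.17). The small proteoglycan decorin (DCN) changed by -1.33 (SE 0.21) and -1.41 (SE 0.21).

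Of the inhibitors, clearance receptors and furin-like convertases of the proteases, 11 genes were tested. In male cells 2 were higher and 1 lower, and in female cells 1 higher and 1 lower (medians 0.07 and -0.03). These shares were close to or below the 25.8% and 23.9% of all tested genes called. TIMP3, the main tissue inhibitor of ADAMTS4 and ADAMTS5, was not called, at 309.8 and 285 CPM in male and 346 and 285 CPM in female cells on gel and plastic (-0.12, SE 0.24, and -0.28, SE 0.24). LRP1, the receptor that clears both enzymes from the matrix, was not called either (0.12 and -0.03, SE 0.14). PCSK6, a furin-like convertase, rose by 0.81 (SE 0.14) and 0.70 (SE 0.14). The membrane proteoglycan SDC4 (syndecan-4), known to aid ADAMTS5 activation, changed by -1.04 (SE 0.11, adjusted p = 3.77e-06) and -1.23 (SE 0.11, adjusted p = 8.05e-07). TIMP2 rose in male cells (0.53, SE 0.13) and was at 0.33 (adjusted p = 0.0878) in female cells. With the culture as a block, 3 of the 11 were higher in each sex, the convertase PCSK5 being added in both (adjusted p = 0.00422 and 0.0252) and TIMP2 in female cells (adjusted p = 0.0309), where 29.7% of all tested genes in male and 27.6% in female cells were called.

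**Figure D4:**
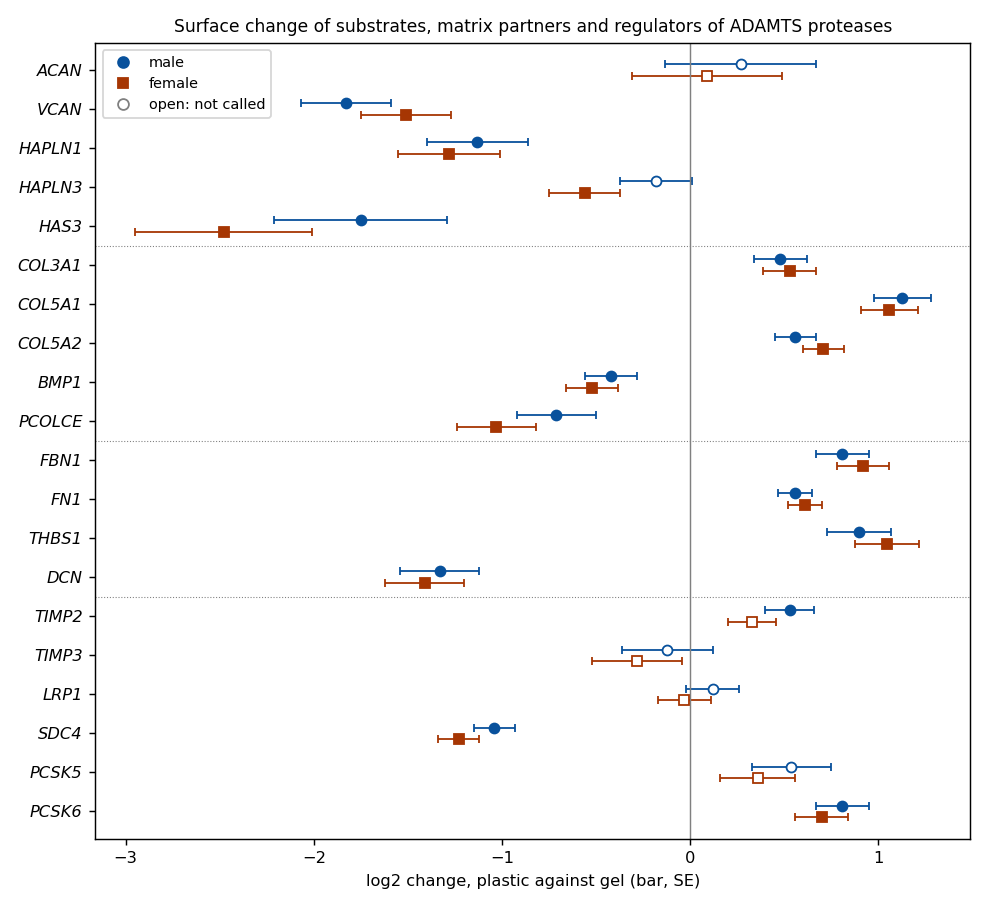
Log2 change of plastic against gel (horizontal axis, bar for the SE) in male and female cells for substrates, procollagen genes, matrix partners and regulators of ADAMTS proteases, parted by dotted lines, with filled symbols for called changes. VCAN (-1.83 and -1.51) and SDC4 (-1.04 and -1.23) lie left of 0, while COL5A1 (1.13 and 1.06) lies right of it and TIMP3 and LRP1 have open symbols.

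The genes whose centred log2 CPM over the 16 libraries lay closest to that of each member were listed by the root mean square difference, a description without a test. This difference is not scaled by the spread of a gene, so it tends to be smaller for genes that vary less and does not rank closeness between members. ADAMTS10 was nearest to the transporter SLC43A3, at 0.07, followed by the phospholipase PLCB3 at 0.11. ADAMTS9 was nearest to the G protein subunit GNAQ (0.14) and ZNF362 (0.17), and ADAMTS2 to KAZN (0.19) and EHD3 (0.20). For the members that fell, the nearest genes were FTL, the ferritin light chain, and the interleukin-4 receptor IL4R for ADAMTS4 (0.27 and 0.29), and STEAP1 and the cholesterol transporter ABCA1 for ADAMTS5 (0.44 and 0.48). ADAMTS1 was nearest to the lipid droplet protein PLIN2 (0.41) and LAPTM4B (0.43), and ADAMTS12 to TGFBI (0.24) and SLC7A7 (0.25). ADAMTS6 was nearest to CENPK (0.15), the gene whose annotated interval overlaps its own, and KCNRG (0.18). Among the members themselves, ADAMTS2 and ADAMTS10 were each nearest to the other (0.32), as were ADAMTS4 and ADAMTS5 (0.63). ADAMTS10 was also the nearest member to ADAMTS9 (0.35) and to ADAMTS6 (0.39). ADAMTS4 and ADAMTS5 were the only members called lower, so their nearness largely follows from those calls.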

How the data were processed

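The deposited values are raw gene counts of polyA RNA libraries. Per the labels, RNA came from an RNeasy Micro extraction and libraries from KAPA mRNA HyperPrep. The submitters' processing notes list Sscrofa11.1 as the build and, as tools, featureCounts, SAMtools 1.3.1, HISAT2 2.1.0, Trimmomatic 0.36 and FastQC 0.11.5. The strand setting of featureCounts is not given in the sources used here.

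Of 29576 entries, 24 carried numbers in place of names (0.169% of counts) and were left out. Genes were filtered with filterByExpr, scaled with TMM (factors 0.896 to 1.124) and tested with glmQLFTest (edgeR 4.0.16, R 4.3.3) in a model of the 4 groups with 12 residual degrees of freedom. The SE is the log2 change divided by the root of the F statistic. limma 3.58.1 and DESeq2 1.42.0 served as alternatives, and the fit was tested on simulated data. No 2 libraries of a group agreed within counting noise (chi-square per degree of freedom 10.22 to 85.2 over 24 pairs). Same-numbered libraries were treated as 1 culture because their deviations correlated by 0.13 to 0.49 in each of 8 pairs, and each of 16 libraries had its highest correlation with its own number. The labels do not state this pairing. Nearest genes were sought among genes with a mean of at least 5 CPM, on log2 CPM with a prior count of 2. Coordinates are those of RefSeq on Sscrofa11.1. Figures were drawn with matplotlib 3.10.9.

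Members and lists were chosen with earlier results of these data known. Named were all members, all tested ADAMTS proteases, up to 4 genes per list by adjusted p, and VCAN, ACAN, BMP1, TIMP3 and LRP1. NID1, TFPI2, HAS1 and TLL1 were named after their values were seen.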

Additional observations from a re-analysis of the deposited data

Results flagged for a closer look

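Of 32 sets of 4 libraries (8 members in 4 groups), 1 had a library whose gap to its nearest neighbour exceeded the critical share of the range in Dixon's test. It was ADAMTS12 in female gel 1, at 79.3 CPM against 28.6 to 33.5 in the other female gel libraries. Chance flags about 1 in 20 such sets. The same culture was also the highest on plastic, at 59.8 CPM. Without female gel 1 the female surface change of ADAMTS12 was 0.36 (adjusted p = 0.319 by edgeR) in place of -0.10.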

How the results depend on the processing

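In male cells the same count of 5 called members held under all 25 alternatives (RLE size factors, DESeq2, limma-voom, 2 other filters, only the libraries compared, the replicate block, cultures or libraries left out). In female cells the count was 3 to 6 when 1 library was left out, with 3 without female plastic 2 as the only count over 1.5 times from 5. With the replicate block it was 6 through ADAMTS6 (0.44). The block changed no other call of a member. Calls in the sex comparisons and the difference of changes stayed at 0 for the members under every alternative, while 54 of 592 such uncalled values had the opposite sign. The sign of ADAMTS12 turned in male cells to -0.04 without male gel 2 and female plastic 4, -0.06 without male gel 1, -0.04 without male gel 2 and -0.09 without male plastic 3. In female cells it turned to 0.10 without cultures male 4, female 1 and female 4, to 0.36 without female gel 1 and to 0.00 without female plastic 3. Over all single left-out libraries ADAMTS12 ran from -0.09 to 0.22 in male and from -0.33 to 0.36 in female cells. The cause was not tested. Leaving out those 3 cultures lowered the genes called in female cells from 3476 to 1968, with 2 female cultures left. Of 41 called surface results of named genes that are no members, 11 lost the call under at least 1 alternative. The difference of changes was not refitted on the compared libraries alone, since it compares all 16. Leaving out male gel 2 and female plastic 4 was chosen after the data were seen.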
